A study of Mus musculus with 9 samples.

Results

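Genes of lysosomal proteolysis were followed in cultured articular chondrocytes, namely the cathepsins Ctsa, Ctsb, Ctsc, Ctsd, Ctsh, Ctsk, Ctsl, Ctss and Ctsz and the cathepsin inhibitor Cst3 (cystatin C). They were chosen by name and function, with earlier results of these data known, and make 10 of the 55471 genes listed for each culture. RNA was sequenced from 9 cultures of primary chondrocytes, which build the matrix of cartilage, taken from the knee (femoral condyles, tibial plateaus) of wild-type mice at postnatal day 5. Of these, 3 cultures were infected with Ad-Control (named Control in the sample annotations), 3 with an adenovirus carrying the collagen receptor OSCAR (Ad-OSCAR), and 3 with Ad-OSCAR followed by 10 µM 5-ASA (5-aminosalicylic acid). All plates were coated with COLpep, a collagen peptide that binds OSCAR, so the Ad-Control cultures were exposed to it as well, and IL-1β was not added. The paper's methods give 800 MOI, 2 days of culture before infection and 24 h after it with or without 5-ASA, whereas in the annotations the virus was given at 400 MOI after 3 days, and 36 h passed before 5-ASA. No group was given 5-ASA without Ad-OSCAR, and neither the annotations nor the methods say whether the cultures came from separate animals, so p-values measure the spread between cultures, which may be technical.

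Cathepsins are proteases that are made as inactive proenzymes, carried to the lysosome by mannose 6-phosphate receptors and activated in its acid lumen. Cathepsin D is an aspartic protease, cathepsin A a serine carboxypeptidase, and cathepsins B, C, H, K, L, S and Z are cysteine proteases of the papain family. Cystatin C is a small secreted protein that blocks the active site of papain-family proteases, whereas cathepsin D and cathepsin A are not its targets. In cartilage and bone, cathepsin K is known for cutting triple-helical collagen, and cathepsins B, D and L for breaking down aggrecan and other matrix proteins once secreted or taken up.

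Total counts ranged from 19733448 to 28192740 per culture, and 15362 genes had enough counts to be tested. Oscar itself had 3 or 4 counts with Ad-Control, at least 173445 with Ad-OSCAR and at least 80766 with Ad-OSCAR and 5-ASA. Every culture thus matched the virus named in its label, while the 5-ASA part of the labels was not checked. The 14 chondrocyte markers were all detected, and all 14 fell in Ad-OSCAR cultures, from a summed level of 38953 to 44733 CPM (counts scaled to a common library size) to one of 2408 to 2749 CPM, with 2873 to 3328 CPM after 5-ASA. The part of this shift in the values below was not tested.

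All 10 genes are protein coding, and lie on chromosomes 2 (Ctsa, Ctsz, Cst3), 3 (Ctsk, Ctss), 7 (Ctsc, Ctsd), 9 (Ctsh), 13 (Ctsl) and 14 (Ctsb) of GRCm38. Ctsk (chr3:95499256-95509362) and Ctss (chr3:95526786-95556403) are neighbours on the same strand with 17423 bases between them. RefSeq promoter sequences (GRCm38.p6) were on hand for 8 of the 10 genes, all but Ctsb and Ctsh. The 250 bases before each start site were searched on both strands for CACGTG, the E box read by the TFEB, TFE3 and MITF family of lysosomal transcription factors, for its extended form TCACGTGA, and for TGANTCA, the AP-1 motif. Every TCACGTGA also contains CACGTG. The E box was found before 3 of the 8 genes (Ctsa, Ctsd and Ctsl), against 6.86% of all 27025 genes in the promoter table, and the extended form before 2 (Ctsa and Ctsd), against 0.907%. No AP-1 motif was found before any of the 8, against 7.82% of all genes. The 4 matches are shown with the bases around them, because Ctsa and Ctsd share the extended form and differ in its place, with the motif in capitals and the strand of the gene read 5′ to 3′:
Ctsa, chr2:164833743-164833772, plus strand: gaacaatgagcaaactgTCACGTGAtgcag
Ctsd, chr7:142387908-142387937, minus strand: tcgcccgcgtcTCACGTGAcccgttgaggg
Ctsd, chr7:142388048-142388077, minus strand: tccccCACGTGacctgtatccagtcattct
Ctsl, chr13:64370739-64370768, minus strand: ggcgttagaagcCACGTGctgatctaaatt
The match of Ctsa began 13 bases before the second of its 2 RefSeq start sites, and the longer match of Ctsd began 99 bases before its start site. All 30 bases shown around each of these matches lie within GENCODE exons of the same gene. The match of Ctsl also lies inside its gene as GENCODE gives it (chr13:64359337-64370890), with 15 of the 30 bases shown in its exons. Only the shorter match of Ctsd lies before the GENCODE start of its gene. The region before Ctsk is shown in full because Ctsk had the second highest fold change of the cathepsins without either motif, which says only that these letters are not in this window:
Ctsk, chr3:95498960-95499209, plus strand: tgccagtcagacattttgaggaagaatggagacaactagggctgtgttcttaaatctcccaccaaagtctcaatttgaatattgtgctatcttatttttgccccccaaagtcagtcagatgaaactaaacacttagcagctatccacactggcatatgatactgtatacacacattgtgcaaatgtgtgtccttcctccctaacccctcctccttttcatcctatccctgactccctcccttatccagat

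Whether OSCAR changes lysosomal proteases was read from Ad-OSCAR against Ad-Control. Of the 10 genes, 9 passed the filter on low counts, and all but Ctss of the cathepsins rose while Cst3 fell. The rises were modest, between 1.14-fold (Ctsl) and 1.57-fold (Ctsa), with a median of 0.32 on the log2 scale for the 8 cathepsins and 0.02 for all genes tested. By edgeR's quasi-likelihood test with an adjusted p below 0.05, 8 of the 9 genes were called higher and 1 lower, where the background was large: 65.0% of all 15362 genes were called, 32.7% as higher and 32.2% as lower. The median size of a change over all genes, regardless of direction, was 0.38 on the log2 scale, so the change of 5 of the 8 cathepsins was smaller than that of a typical gene. None of the 9 genes reached the study's limit of 1.5 on the log2 scale, which 9.95% of all genes did.

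**Figure D1:**
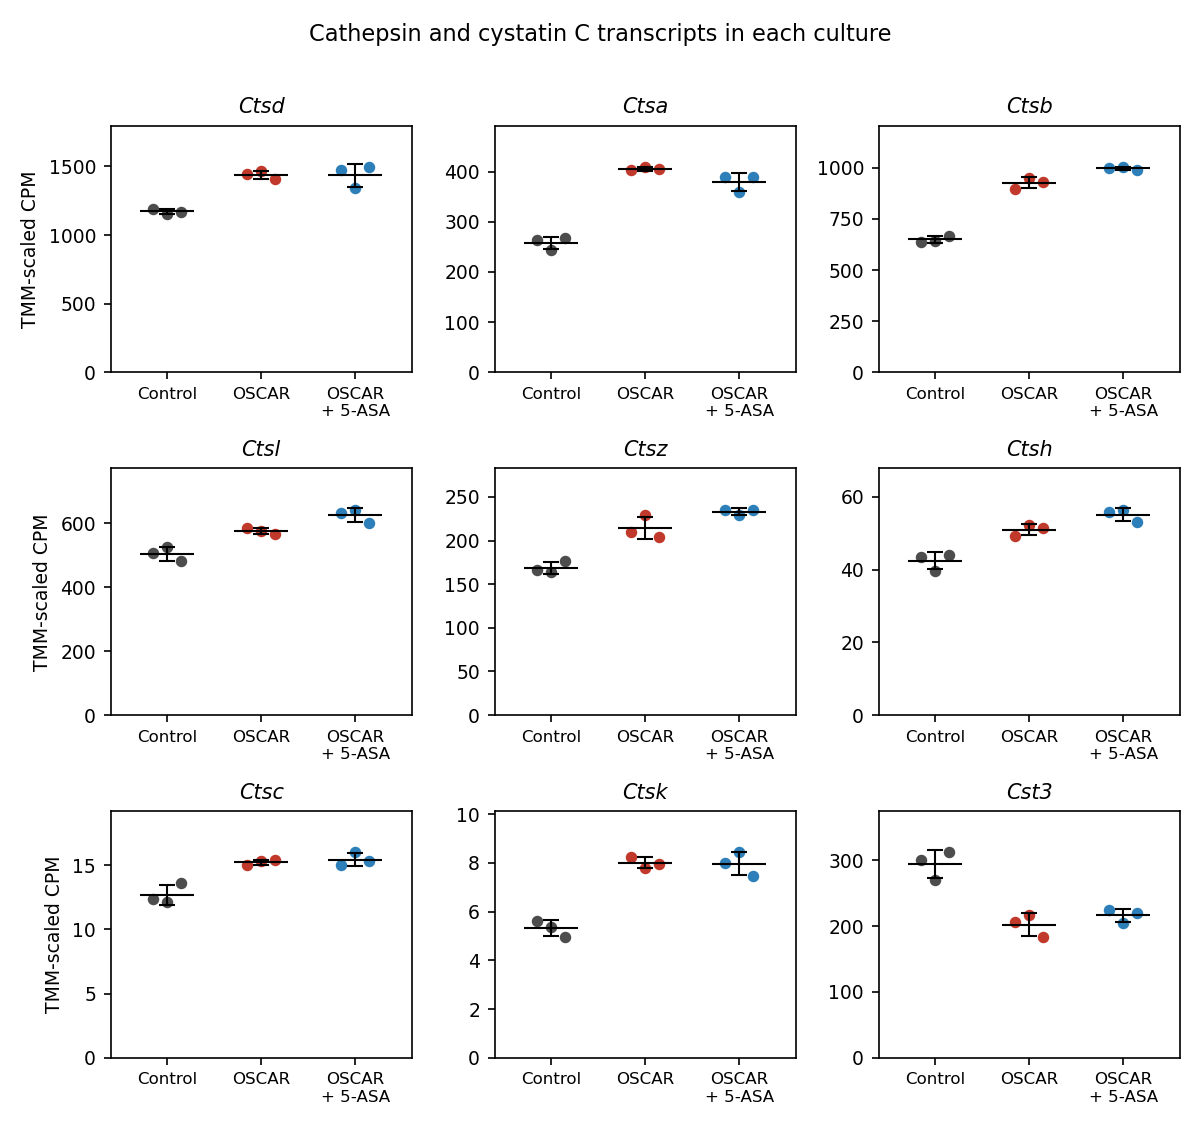
Level of the 9 tested genes in each of the 9 cultures, in CPM scaled with TMM factors, on axes that start at 0. Points are cultures, and the line and bars show the mean ± SD of 3 cultures; the 8 cathepsins lie higher in Ad-OSCAR than in Ad-Control cultures without overlap, from 1.14-fold for Ctsl to 1.57-fold for Ctsa, and Cst3 lies lower.

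Ctsd, the aspartic protease and the most abundant cathepsin transcript, had 1193, 1156 and 1169.9 CPM in the 3 Ad-Control cultures, 1443, 1465 and 1409 CPM in the Ad-OSCAR cultures, and 1472, 1342 and 1497 CPM in the 5-ASA-treated ones. The lowest Ad-OSCAR culture stood above the highest Ad-Control culture, and the 5-ASA-treated cultures lay on both sides of the untreated ones. Its log2 fold change with Ad-OSCAR was 0.30 ± 0.04 (SE; adjusted p = 1.03e-05, edgeR). Counts of Ctsd share 808 exonic bases with the same-strand gene model Gm49369, which had at most 14.5 counts in any culture.

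Ctsa, a carboxypeptidase that also protects neuraminidase and beta-galactosidase in the lysosome, rose most. It had 262.7, 244.5 and 267.1 CPM in Ad-Control, 402.6, 409.4 and 404.3 CPM in Ad-OSCAR, and 388.9, 359.4 and 389.2 CPM in 5-ASA-treated cultures. Its Ad-OSCAR values lay close together and all above those of Ad-Control. The log2 fold change was 0.65 ± 0.05 (SE; adjusted p = 6.69e-10, edgeR), a size that 30.9% of all genes exceeded in one direction or the other. Ctsa shares 495 exonic bases with Pltp and 324 with Neurl2 on the opposite strand, and whether counting used strand is not given in the sources used here. Pltp had a mean of 492 counts in Ad-Control and 867 in Ad-OSCAR cultures and Neurl2 58 and 87, where Ctsa had 5053 to 5951 and 9985 to 11867.

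Among the cysteine cathepsins, Ctsb, which can act both as an endopeptidase and as a dipeptidyl carboxypeptidase, had 638.6, 644.1 and 668.0 CPM in Ad-Control, 897.7, 951.6 and 932.0 CPM in Ad-OSCAR, and 1000.2, 1004.9 and 991.1 CPM in 5-ASA-treated cultures. The groups stood apart, and the treated cultures were the highest of the 9. Its log2 fold change with Ad-OSCAR was 0.51 ± 0.04 (SE; adjusted p = 2.01e-09, edgeR). The gene shares 774 exonic bases with Fdft1 on the other strand, which moved the other way, from a mean of 1459 counts in Ad-Control to 981 in Ad-OSCAR cultures, against 12637 to 15675 and 23208 to 26458 counts of Ctsb.

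Ctsl, an endopeptidase of wide specificity, had 505.2, 523.9 and 480.3 CPM in Ad-Control, 584.1, 576.2 and 566.5 CPM in Ad-OSCAR, and 631.5, 642.1 and 600.3 CPM with 5-ASA. It was called with the smallest fold of the 8, with a log2 fold change of 0.19 ± 0.04 (SE; adjusted p = 0.000823, edgeR). Ctsz, a carboxypeptidase, had 165.7, 163.8 and 176.5 CPM in Ad-Control, 210.0, 228.9 and 204.5 CPM in Ad-OSCAR, and 235.2, 229.0 and 235.5 CPM in 5-ASA-treated cultures, and rose by 0.35 ± 0.05 on the log2 scale (SE; adjusted p = 6.99e-06). In both genes the Ad-OSCAR cultures were all higher than the Ad-Control cultures.

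Less abundant were the exopeptidases Ctsh, an aminopeptidase, and Ctsc, which activates granule serine proteases in leukocytes by trimming their N terminus. Ctsh had 43.5, 39.7 and 44.1 CPM in Ad-Control, 49.2, 52.2 and 51.5 CPM in Ad-OSCAR, and 55.8, 56.5 and 53.1 CPM with 5-ASA, a log2 fold change with Ad-OSCAR of 0.27 ± 0.05 (SE; adjusted p = 0.000249). Ctsc had 12.4, 12.1 and 13.6 CPM in Ad-Control, 15.0, 15.3 and 15.4 CPM in Ad-OSCAR, and 15.0, 16.0 and 15.3 CPM with 5-ASA, a log2 fold change of 0.27 ± 0.07 (SE; adjusted p = 0.00365). The rise of Ctsc was seen in counts and not in TPM, the unit that also divides by transcript length. In TPM it had 9.54 to 11.5 in Ad-Control and 10.4 to 11.3 in Ad-OSCAR cultures, which overlap, and limma gave a log2 change of 0.07 (adjusted p = 0.456). The effective length that RSEM assigned to Ctsc went from 2007 ± 103 bases in Ad-Control to 2337 ± 107 in Ad-OSCAR cultures (SD, n = 3), and the part of isoform use in the count was not tested.

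Ctsk, the collagen-cutting cathepsin best known from osteoclasts, was transcribed at a low level in these chondrocytes. It had 119, 131 and 94 counts in Ad-Control, 243, 190 and 219 in Ad-OSCAR and 208, 231 and 189 in 5-ASA-treated cultures, or 5.62, 5.38 and 4.97 CPM, 8.24, 7.79 and 7.97 CPM, and 8.0, 8.43 and 7.47 CPM. The Ad-OSCAR cultures were higher than the Ad-Control cultures with no overlap, and the treated cultures lay around the untreated ones. Its log2 fold change with Ad-OSCAR, 0.59 ± 0.10 (SE; adjusted p = 4.95e-05, edgeR), was the second highest of the cathepsins, with a 95% interval of 0.38 to 0.80, the widest of the 9 tested genes. Among the 9326 genes with a mean of at least 10 CPM, those whose log2 CPM followed that of Ctsk most closely over the 9 cultures were Ptpn12, Pcgf6 and Zkscan6, with root mean square differences of 0.0359, 0.0399 and 0.0467 after centring.

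Ctss, the cathepsin of antigen-presenting cells, had 1, 1 and 0 counts in Ad-Control, 0, 1 and 1 in Ad-OSCAR and none in the 5-ASA-treated cultures. All values lie under the 3 counts that a count of 0 still allows, which amount to 0.102 to 0.159 CPM in these cultures, so no difference in Ctss was detectable at this depth. This limit covers counting error only.

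Cst3, the inhibitor, moved against the cathepsins. It had 299.8, 270.2 and 312.0 CPM in Ad-Control, 206.5, 216.8 and 183.0 CPM in Ad-OSCAR, and 224.8, 205.4 and 219.6 CPM in 5-ASA-treated cultures. The highest culture with Ad-OSCAR stood below the lowest with Ad-Control. The log2 fold change was -0.54 ± 0.06 (SE; adjusted p = 5.54e-07, edgeR), or 0.688-fold with a 95% interval of 0.627 to 0.754. The genes nearest to it over the 9 cultures by the same measure were Rtl8a, Aldoa and Bcl9l, with root mean square differences of 0.0406, 0.0419 and 0.0445.

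No overlap between the CPM of Ad-OSCAR and Ad-Control cultures was seen for 9 of the 9 tested genes, as for 69.0% of all genes. Scaling the libraries by their totals alone, without TMM, moved the median of all genes to 0.15 on the log2 scale and the share of higher calls from 50.4% to 62.9%. Relative to that median the 8 cathepsins had a median of 0.30, the same as with TMM, and Cst3 was at -0.56 in both. Such a change of scaling moves all genes by nearly the same amount, so these relative values had to agree.

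Transcript levels of different genes were set side by side in TPM (a transcript's share of the library, corrected for length). In Ad-Control cultures the order was Ctsd with 1009.7 ± 13.8 TPM, Cst3 with 726 ± 51.6, Ctsl with 619 ± 51.0, Ctsb with 425 ± 16.8, Ctsa with 241 ± 17.0, Ctsz with 222 ± 8.46, Ctsh with 65.5 ± 2.31, Ctsc with 10.4 ± 1.02 and Ctsk with 6.64 ± 0.416 (SD, n = 3), followed by Ctss at 0 to 0.07 TPM. Neighbours in this order did not overlap between cultures, except Cst3 with Ctsl and Ctsa with Ctsz. In Ad-OSCAR cultures Cst3, at 505 ± 34.1 TPM, stood behind Ctsl (721 ± 49.6 TPM) and Ctsb (595 ± 24.3 TPM), with no overlap, and the order was the same with 5-ASA. The only neighbours that overlapped in those 2 groups were Ctsc and Ctsk, at 11.0 ± 0.478 and 10.2 ± 0.430 TPM in Ad-OSCAR cultures.

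**Figure D2:**
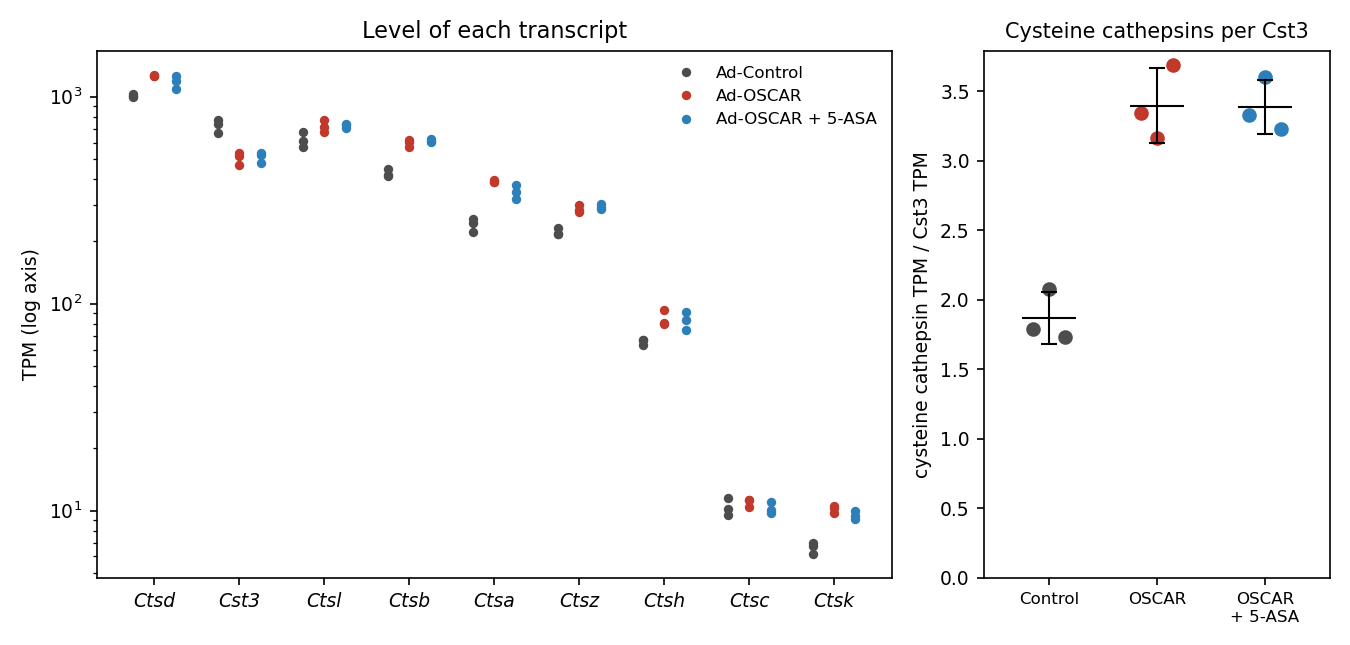
Left, TPM of each tested gene in each culture on a log axis, ordered by the Ad-Control mean; right, the summed TPM of the 7 cysteine cathepsins divided by the TPM of Cst3, with the mean ± SD of 3 cultures and an axis that starts at 0. Cst3 overlaps with Ctsl and lies above Ctsb in Ad-Control cultures and lies below both in the other groups, and the ratio is 1.73 to 2.08 in Ad-Control against 3.16 to 3.69 in Ad-OSCAR cultures.

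The summed TPM of the 9 cathepsins went from 2600.3 ± 10.7 in Ad-Control to 3359 ± 37.9 in Ad-OSCAR and 3261 ± 108 in 5-ASA-treated cultures (SD, n = 3), which is 0.260%, 0.336% and 0.326% of all transcripts. Ctsd, Ctsb and Ctsl together held 79.0% ± 1.02, 76.7% ± 0.412 and 77.2% ± 0.194 of that sum. Divided by the TPM of Cst3, the 7 cysteine cathepsins among the chosen genes were at 1.79, 2.08 and 1.73 in the Ad-Control cultures, 3.34, 3.16 and 3.69 in the Ad-OSCAR cultures and 3.33, 3.60 and 3.23 in the 5-ASA-treated cultures. This sum leaves out Ctsf, a further cysteine cathepsin, with a mean of 54.4 TPM in Ad-Control and 113.6 TPM in Ad-OSCAR cultures. The groups with Ad-OSCAR lay above Ad-Control and overlapped each other. Most of this ratio comes from Ctsl and Ctsb, which per Cst3 transcript went from 0.859 ± 0.134 to 1.43 ± 0.141 and from 0.587 ± 0.0294 to 1.18 ± 0.119. These are ratios of transcripts, and say nothing of protein, secretion or enzyme activity. No test was made of a sum over the chosen genes.

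The effect of 5-ASA was read from treated against untreated Ad-OSCAR cultures. By edgeR with an adjusted p below 0.05, 0 of the 9 tested genes were called, where 17.8% of all genes were. None of the 9 passed a fold over 1.5 with an unadjusted p below 0.05, which 4.15% of all genes did; the study set these limits for treated Ad-OSCAR against Ad-Control cultures, not for treated against untreated ones. Oscar fell to 0.510-fold in the same comparison. All 9 log2 fold changes lay between -0.10 (Ctsa) and 0.12 (Ctsl and Ctsz), and their 95% intervals between -0.20 and 0.23, so changes beyond 1.18-fold in either direction were outside the interval of every gene. At an unadjusted p below 0.05, 4 of the 9 (Ctsb, Ctsh, Ctsl and Ctsz) passed, each higher with 5-ASA, against 30.3% of all genes in either direction and 16.4% as higher. After adjustment DESeq2 called 2 of them (Ctsb and Ctsl), where it called 1581 of 15362 genes higher and 910 lower. For these 4 genes and for Ctsa the treated and untreated cultures did not overlap, as for 33.8% of all genes. For Ctsz the gap was small, between 228.9 CPM in the highest untreated and 229.0 CPM in the lowest treated culture. Ctsb was 1.08-fold (adjusted p = 0.0699), Ctsl 1.09-fold (adjusted p = 0.0728), Ctsz 1.09-fold (adjusted p = 0.102) and Ctsh 1.08-fold (adjusted p = 0.137) of untreated cultures by edgeR. In TPM the treated and untreated cultures overlapped for all 4, and Ctsh was at -0.03 on the log2 scale with limma. Ctsa was the one cathepsin whose treated cultures all lay below the untreated ones, at 0.935-fold (adjusted p = 0.169). Ctsd, Ctsk and Ctsc had log2 fold changes of -0.00202, -0.01 and 0.02, and Cst3 one of 0.10 with an interval of -0.03 to 0.23.

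This comparison depended on scaling. Among all calls, 58.5% were higher with TMM, 29.5% with library totals alone and 28.4% with limma on TPM, and the median of all genes was -0.00442, -0.08 and -0.09 on the log2 scale. The median of the 8 cathepsins was 0.06, -0.01 and -0.06 in turn, or 0.07, 0.07 and 0.03 relative to all genes, so no direction is given for them. With library totals alone 1 gene was called, Ctsa as lower, with a log2 fold change of -0.17 (adjusted p = 0.0128). Of 15362 genes, 2523 were called lower and 1058 higher with this scaling.

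Set against Ad-Control, the 5-ASA-treated cultures still had all 8 cathepsins higher and Cst3 lower, with 9 of the 9 tested genes called by edgeR, where 63.2% of all genes were, 31.4% as higher and 31.8% as lower. The CPM of the 2 groups did not overlap for any of the 9, as for 66.6% of all genes. Of all calls 49.7% were higher, and 39.5% with limma on TPM. Ctsb had a log2 fold change of 0.62 ± 0.04, Ctsk of 0.58 ± 0.10, Ctsa of 0.56 ± 0.05, Ctsz of 0.47 ± 0.05, Ctsh of 0.38 ± 0.05, Ctsl of 0.31 ± 0.04, and Ctsd and Ctsc of 0.29 ± 0.04 and 0.29 ± 0.07 (SE). Cst3 was at -0.44 ± 0.06. The adjusted p ranged from 1.56e-10 for Ctsb to 0.00228 for Ctsc, which in TPM was at -0.01 on the log2 scale. By the study's limits for this comparison (a fold over 1.5 and an unadjusted p below 0.05) Ctsb alone of the 9 passed, at 1.54-fold, against 29.9% of all genes. Over the alternatives, log2 fold changes ranged from 0.53 to 0.67 for Ctsb, 0.46 to 0.64 for Ctsk and 0.52 to 0.61 for Ctsa. Each range crosses the fold limit, so which genes pass depends on the processing. The comparison shares its cultures with the other comparisons and is not independent of them.

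**Figure D3:**
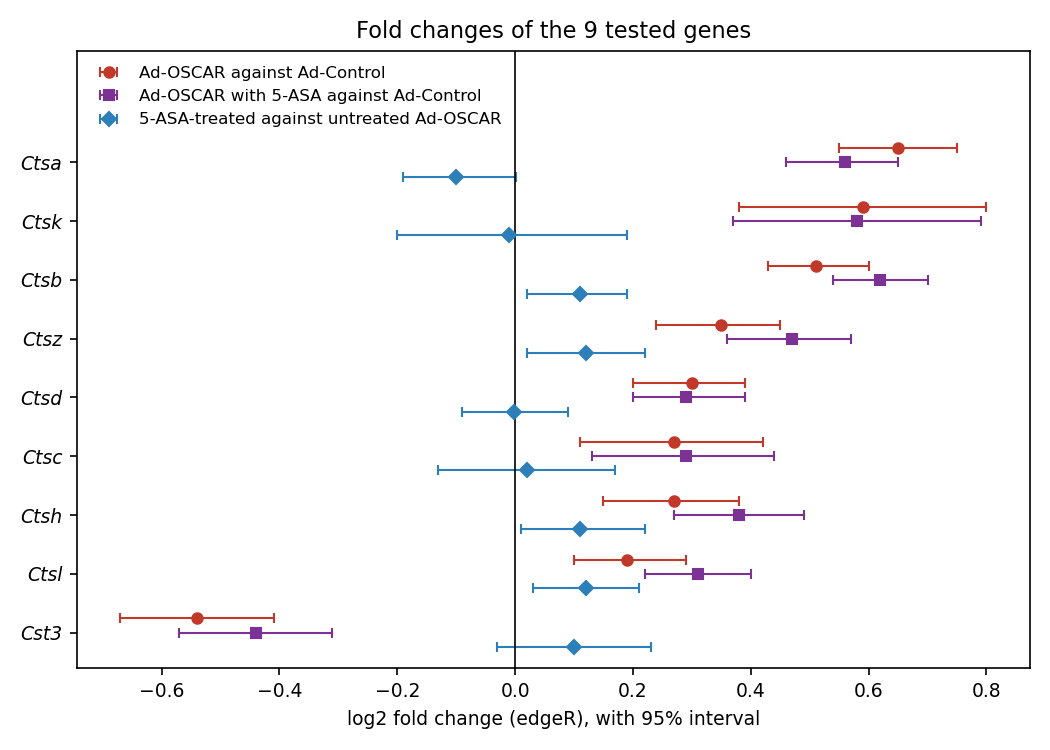
Log2 fold changes of the 9 tested genes in the 3 comparisons by edgeR, with 95% intervals. For the 8 cathepsins and Cst3 both comparisons with Ad-Control lie away from 0, while the 5-ASA effect lies between -0.10 and 0.12.

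Further genes of the lysosome were counted from lists of their roles. Of 13 other cathepsins, 3 were tested, and 2 rose with Ad-OSCAR, where 32.7% of all genes rose. Ctsf, a cysteine cathepsin, went from 48.0 ± 0.389 to 102 ± 1.82 CPM (SD, n = 3), a log2 fold change of 1.08 (adjusted p = 1.08e-12), which is higher than that of any of the 8 cathepsins above. Ctso went from 12.2 ± 0.694 to 18.1 ± 0.907 CPM (log2 fold change 0.56, adjusted p = 2.23e-06), Ctsw had 4 to 26 counts (log2 fold change 0.68, adjusted p = 0.103), and the others had at most 1 count in any culture. With 5-ASA the 3 had adjusted p-values of 0.912 to 0.991.

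The list of other cystatins and stefins had 7 tested genes, of which 3 rose and 2 fell with Ad-OSCAR, where 32.7% and 32.2% of all genes did. The 2 that were not called were Fetub (fetuin B), with 7 to 15 counts, and Serpinb6a, which is a serpin and no cystatin (adjusted p = 0.505 and 0.0737). Cstb, which encodes stefin B, the cystatin of the cytosol, moved opposite to Cst3. It went from 23.6 ± 0.638 CPM in Ad-Control to 48.9 ± 3.56 in Ad-OSCAR and 33.1 ± 1.54 in 5-ASA-treated cultures (SD, n = 3), a log2 fold change of 1.05 with Ad-OSCAR (adjusted p = 3.44e-11), and it was the one gene of the list that fell with 5-ASA, by 0.56 on the log2 scale. Cst6 (cystatin M) rose from 1.92 ± 0.397 to 3.06 ± 0.426 CPM, a call that was not made with limma on TPM, and Stfa3, with 0 to 27 counts, from 0.125 ± 0.111 to 0.738 ± 0.262 CPM. The kininogens Kng1 and Kng2, plasma proteins with cystatin domains, fell by 3.63 and 3.67 on the log2 scale, from 7.06 and 11.2 CPM.

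Acidification of the lysosome is needed for activation of the cathepsins. Of its genes and those of the lysosomal membrane, 22 were tested. Of these, 18 rose with Ad-OSCAR by edgeR and the other 4 were not called, where 32.7% of all genes rose, with a median of 0.39 on the log2 scale. Atp6v1f and Tcirg1, subunits of the proton pump, rose by 0.87 and 0.85 on the log2 scale (adjusted p = 2.4e-10 and 2.24e-10). With 5-ASA 10 of the 22 fell and 1 rose, where 7.38% of all genes fell and 10.4% rose, with a median of -0.15. The pump subunits Atp6v1d and Atp6v0b fell by 0.41 and 0.33 on the log2 scale, and Atp6v0a1 rose by 0.14 (adjusted p = 0.0482), a call that was lost with limma on TPM and with library totals alone. With other scalings 8 or 9 (limma on TPM) or 17 (library totals alone) were called lower. The 9 cathepsin and cystatin genes tested gave 0 calls in the same comparison, and the difference between the 2 counts was not tested.

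Of 36 other lysosomal hydrolases, 20 rose and 6 fell with Ad-OSCAR (median 0.18), where 32.7% of all genes rose and 32.2% fell. With 5-ASA 8 rose and 3 fell (median 0.02), where 10.4% and 7.38% of all genes did. Gla, the alpha-galactosidase, rose most, by 1.74 on the log2 scale, and fell by 0.54 with 5-ASA. Tpp1, a lysosomal tripeptidyl peptidase, rose by 0.86 and was at 0.00414 with 5-ASA (adjusted p = 0.964). Ids and Arsb, sulfatases of glycosaminoglycan breakdown, fell by 0.59 and 0.53. Neu1, the neuraminidase that cathepsin A protects, rose by 0.62 and fell by 0.20 with 5-ASA, the latter call being lost with DESeq2 and with limma on TPM. Pla2g15 and Acp2 rose most with 5-ASA, by 0.26 and 0.21, and the call of Acp2 was lost with limma on TPM. The 5-ASA counts of this list changed with the scaling, to 1 higher and 2 lower with limma on TPM and to 2 higher and 10 lower with library totals alone.

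Of 19 genes that sort enzymes to the lysosome, 6 rose and 6 fell with Ad-OSCAR (median -0.04), which is near the 32.7% and 32.2% of all genes. With 5-ASA 1 rose and 1 fell, where 10.4% and 7.38% of all genes did. With library totals alone the counts were 7 higher and 3 lower with Ad-OSCAR and 1 higher and 5 lower with 5-ASA, and with RLE scaling, DESeq2 and limma on TPM 0 were lower with 5-ASA. The mannose 6-phosphate receptors M6pr and Igf2r had log2 fold changes of -0.06 and -0.04 (adjusted p = 0.286 and 0.357). Psap, the precursor of the saposins, and Lrp1, an endocytic receptor, rose by 0.60 and 0.43, and Cln6 and Sort1 fell by 1.01 and 0.50. With 5-ASA Sort1 rose by 0.41 and Gnptab, which makes the mannose 6-phosphate tag, fell by 0.16 (adjusted p = 0.0486), a call lost with RLE scaling, DESeq2 and limma on TPM. Of the listed transcription factors of the TFEB, TFE3 and MITF family, Mitf rose by 0.71 (adjusted p = 2.28e-09) and Tfe3 by 0.15 (adjusted p = 0.00781), Tfeb fell by 0.33 (adjusted p = 0.0086), a call that was lost with library totals alone, and Tfec had at most 2 counts. With 5-ASA the 3 tested had adjusted p-values of 0.425 to 0.764.

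**Figure D4:**
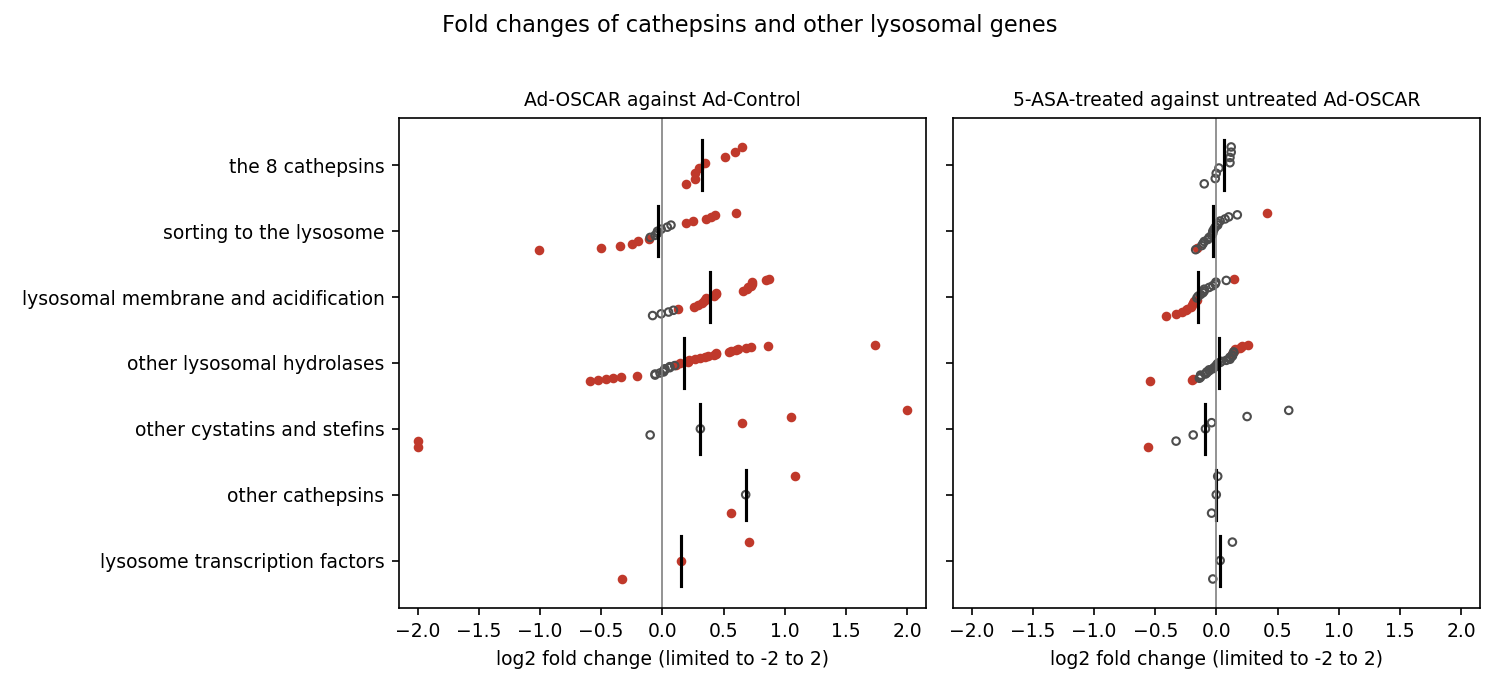
Log2 fold changes of the 8 tested cathepsins and of 6 lists of other lysosomal genes, for Ad-OSCAR against Ad-Control (left) and for 5-ASA-treated against untreated Ad-OSCAR (right), with axes limited to -2 to 2. Points are genes, filled where the adjusted p of edgeR is below 0.05, and black lines are medians; on the right none of the 8 cathepsins is filled, while 10 of the 22 genes of the lysosomal membrane and acidification are filled below 0.

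Several of these genes are also abundant in macrophages and osteoclasts, so markers of other cells were read in the same cultures. The 18 macrophage and leukocyte markers summed to 19.5 to 22.1 CPM in Ad-Control, 37.6 to 38.0 in Ad-OSCAR and 31.4 to 32.8 in 5-ASA-treated cultures. Of these, 12 of 18 had at most 3 counts in any Ad-Control culture and 10 of 18 in any Ad-OSCAR culture, among them the leukocyte antigen Ptprc and the macrophage gene Adgre1, and Cd52 and C1qa, C1qb and C1qc had none in any culture. Of 6 tested, 3 rose and 2 fell with Ad-OSCAR, where 32.7% of all genes rose and 32.2% fell. Cd14 was the most abundant, with 10.6 CPM in Ad-Control and 22.2 CPM in Ad-OSCAR cultures. Cd68 rose from 1.99 to 8.21 CPM, and Laptm5 and Mrc1 fell from 1.82 to 0.533 and from 1.81 to 1.02 CPM. The 10 osteoclast markers summed to 50.0 to 54.5, 72.2 to 73.2 and 57.6 to 61.2 CPM, with Dcstamp at 0 counts in every culture and Nfatc1 the most abundant, at 34.7 CPM in Ad-Control cultures. Of 7 tested, 5 rose and 1 fell with Ad-OSCAR, against the same 32.7% and 32.2% of all genes. Itgb3 rose from 4.41 to 21.0 CPM, Nfatc1 from 34.7 to 39.2, Atp6v0d2 from 0.0137 to 1.72, Car2 from 0.435 to 1.08 and Calcr from 0.0744 to 0.724 CPM, and Acp5, the acid phosphatase of osteoclasts, fell from 12.6 to 8.22 CPM. The 8 endothelial markers summed to 0.793 to 1.60, 4.63 to 5.84 and 2.46 to 2.88 CPM, and the 2 of them that were tested, Tek and Vwf, rose with Ad-OSCAR and fell with 5-ASA. The 10 fibroblast markers went from 13489 to 14305 CPM in Ad-Control to 9683 to 10548 in Ad-OSCAR and 11783 to 13014 in 5-ASA-treated cultures. Of 9 tested, 2 rose and 7 fell with Ad-OSCAR, so this sum joins markers that moved in opposite directions. Col1a1 fell from 9194.5 to 2894.8 CPM and Col3a1 rose from 4253.4 to 7009.2 CPM. With 5-ASA 5 rose and 1 fell. The part of these cells in the cathepsin values was not tested, and in whole cultures a change in the number of cells of a type cannot be told apart from a change in RNA per cell.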

How the data were processed

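RNA-seq was analysed for 9 cultures in 3 groups of 3, grouped by the treatment given in the sample annotations. Per the paper's methods, the authors trimmed reads (2 × 100 bases, stranded mRNA libraries) with BBDuk, aligned them with STAR 2.7.1a to GRCm38 and counted them with RSEM 1.3.1. The deposited estimated counts are per gene and carry no scaling between libraries. The authors' TPM and FPKM are the RSEM values per length and library, and FPKM was not used. Counts were rounded to whole numbers, and between 8.97% and 10.1% of genes were not whole (to within 0.001) before that.

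Differential expression was tested with edgeR 4.0.16 in R 4.3.3 (TMM, filterByExpr by group, quasi-likelihood F test, all 9 cultures in 1 fit, Benjamini-Hochberg over 15362 genes). The biological coefficient of variation was 5.11%. CPM are TMM-scaled. Standard errors were taken as |log2 fold change|/√F, and a call is an adjusted p below 0.05. TPM were described without a test, apart from limma 3.58.1 on log2(TPM + 1) and log2(TPM + 0.1) as alternatives. Other alternatives were DESeq2 1.42.0, RLE scaling, library totals alone (added after the data were seen), no filter, a minimum of 10 counts per culture, fits of only 2 groups, a block for the replicate number, and each culture left out. Scripts were tested on simulated data.

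The 10 genes and all lists were chosen with earlier results of these data known. Named besides them are, per list and comparison, up to 2 genes that rose most and 2 that fell most among those called with a mean of at least 1 CPM, all measured cathepsins and cystatins, the 4 transcription factors, and markers that were the most abundant of their list or at 0; M6pr, Igf2r, Ptprc, Adgre1, Itgb3, Atp6v0d2, Car2, Calcr, Acp5 and Serpinb6a were named after their values were seen. For Ctsk and Cst3 the 3 genes nearest by centred log2 CPM (prior count 2) are given. Symbols and coordinates are from GENCODE M21, in which 55230 of 55471 genes were found.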

Additional observations from a re-analysis of the deposited data

How the results depend on the processing

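Ad-OSCAR against Ad-Control gave 9 calls under every alternative except limma on TPM (9 of the 10 genes with no filter, which let in Ctss, and otherwise 9 of 9), which gave 8 with either pseudocount and lost Ctsc (log2 fold changes 0.07 and 0.08, adjusted p = 0.456 and 0.454). The same held for 5-ASA-treated cells against Ad-Control, where Ctsc was at -0.01 with both pseudocounts. The cause was not tested. For 5-ASA against untreated cells the 0 calls became 2 with DESeq2 (Ctsb and Ctsl) and 1 with library totals alone (Ctsa). Of 15362 genes, DESeq2 called 1581 higher and 910 lower, and library totals alone 1058 higher and 2523 lower. Leaving out 1 culture gave 0 to 1 calls, with Ctsz called without Ad-OSCAR replicate 2 (0.17, adjusted p = 0.0315) and Ctsl without 5-ASA replicate 3 (0.15, adjusted p = 0.0404). The former fit called 1462 genes higher and 995 lower of 15682, the latter 1469 higher and 1014 lower of 15671.

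In the same comparison some values near 0 changed sign without being called. Ctsc was at -0.08 and -0.09 with limma on TPM, -0.01 without 5-ASA replicate 2 and -0.05 with library totals alone. Ctsd was at 0.00191 with RLE scaling, 0.0019 with DESeq2, 0.01 without Ad-OSCAR replicate 2 and 0.05 without 5-ASA replicate 2. Ctsh was at -0.03 with limma on TPM, and Ctsk at 0.01 without Ad-OSCAR replicate 1 and 0.04 without 5-ASA replicate 3. All other directions of the 9 genes were kept. The numbers of the replicates mark no shared animal or day in the annotations, and deviations of same-numbered cultures were correlated by -0.0723 to 0.0396 between groups, so they were not taken to pair the cultures. With the replicate number as a block, 9, 0 and 9 genes were called in the 3 comparisons, as without the block. Depth limits Ctss, which was tested with no filter alone and was not called, and the 2 tested genes with the lowest counts, Ctsk and Ctsc, had the widest intervals.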
